A study of Macaca mulatta with 16 samples.

Results

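Among stretches of chromatin that were open in every T cell library of the study, 945 gave a stronger ATAC-seq signal in each memory library than in any naive library. ATAC-seq uses a transposase to cut accessible DNA, and a peak is a stretch called open from those cuts. The cells were sorted from the peripheral blood of 2 rhesus macaques (Macaca mulatta), with 1 sampling before dosing and 1 after it. The drug, injected under the skin, was 2-hydroxypropyl-beta-cyclodextrin, a cyclic oligosaccharide known to take up cholesterol. The dose was 1 ml/kg per day of a 15% (w/w) solution for up to 120 days. Each of the 8 groups held 2 libraries, 1 per animal, namely naive CD4+, memory CD4+, naive CD8+ and memory CD8+ T cells untreated and the same 4 populations after treatment. All libraries came from the same 2 animals, so a group is a sample of those animals, no group without dosing was taken at the later time, and time and treatment cannot be told apart. No strain, age or genotype is used here.

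The members were chosen in steps. Merging the peaks of all 16 libraries wherever they overlapped by 1 bp or more gave 55449 regions, of which 24333 had a peak in every library. Of these, 18930 were over 1200 and under 6000 bp wide, and they are called eligible regions. The strength of a region in a library was the percentile, within that library's own list, of the area score of its strongest peak there, so that a higher value means a stronger peak relative to that library's other peaks. A region was a member where the lowest of the 8 memory strengths (CD4+ and CD8+) lay above the highest of the 8 naive strengths. This held for 945 eligible regions (4.99%), and the reverse, all naive strengths above all memory strengths, for 587 (3.10%). These numbers were 793 and 780 with lists cut to equal length, 2093 and 2843 in animal 2 alone and 2439 and 1508 in animal 1 alone, so which kind was more frequent depended on the setting. The naive and memory strengths therefore made the choice. Every difference between the states below is a description of what was chosen and carries no test. Comparisons of lineage and of time use labels the rule did not use. Comparing the lineages within 1 state, or the step from naive to memory between them, however, also uses the states by which members were chosen.

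Naive T cells circulate before any encounter with the antigen they recognise, and memory T cells are what remains of a clone after such an encounter. Memory cells respond faster on a second encounter, and part of that readiness is known to lie in enhancers and promoters that stay accessible after activation has ended. Enhancers and promoters can be open in several cell types and still differ in how often they are open or how widely. The strength of an always open region is a graded measure of its signal, and it also depends on the other peaks of the list. CD4+ cells are mainly helper cells and CD8+ cells mainly killer cells. In sorted bulk cells, a stronger signal from more cells with the site open and a stronger signal from more cutting per cell cannot be told apart.

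Positions are in rheMac10. Genes at these positions are not given and the sorted states were not checked against marker genes, for want of an annotation of that build here, and no sequences are shown for the same reason. The lists held 36307 to 42034 peaks (median 40452). Read depth was unknown, and the shortest lists, of 36307 peaks before and 37966 after treatment, belonged to naive CD8+ cells of animal 1.

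**Figure D1:**
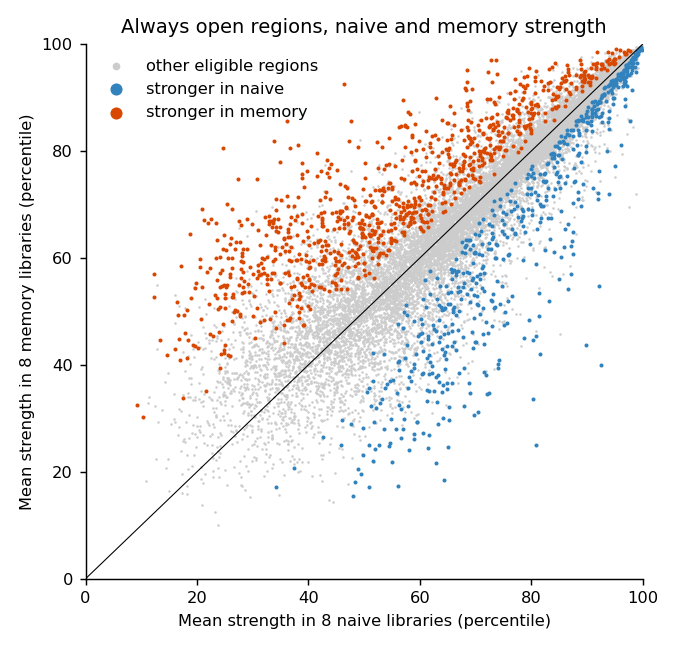
Mean strength (percentile within a library's own list) of each of the 18930 eligible regions in the 8 naive libraries (x axis) and the 8 memory libraries (y axis). The 945 regions chosen as stronger in memory (orange) lie above the line of equal strength, the 587 chosen as stronger in naive cells (blue) below it, and the other eligible regions (grey) around it.

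Members were regions of middling strength that were strong in memory cells and only moderate in naive cells. Their median strength was 70.4 over the memory libraries and 54.9 over the naive libraries, while the medians over all eligible regions were 72.7 and 72.6. The median difference between the states was 14.2 percentile points, with quartiles of 8.49 and 23.1, and it ran from 0.998 to 55.8. Thus in memory cells the members resembled other always open regions in strength, and in naive cells they ranked lower. By population, the median strength of members was 56.7 in naive CD4+, 54.3 in naive CD8+, 69.3 in memory CD4+ and 72.3 in memory CD8+ cells. Over single libraries the median was 53.7 to 57.4 in the 8 naive ones and 68.3 to 73.5 in the 8 memory ones.

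Membership was most frequent in the middle of the strength scale. Of eligible regions with a mean strength over all 16 libraries between the percentiles 50 and 60, 8.26% were members, against 2.20% between 90 and 100. Regions chosen as stronger in naive cells did not follow that fall at the top, with 3.92% and 4.13% in the same ranges. The strongest members were on chromosome 4 at 66689159 to 66694940 and on chromosome 2 at 58976669 to 58982006, and their states lay close together. In the first, memory strengths ran from 98.3 to 98.9 and naive strengths from 96.9 to 98.3, and in the second from 98.7 to 99.2 and from 96.7 to 98.3. At the other end, the weakest members were on chromosome 15 at 49936153 to 49937446, with memory strengths of 26.1 to 35.5 and naive strengths of 0.484 to 24.0, and on chromosome 13 at 22772119 to 22773454, with 19.1 to 53.1 and 0.593 to 18.4. Their lowest naive peaks were among the faintest of those lists.

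**Figure D2:**
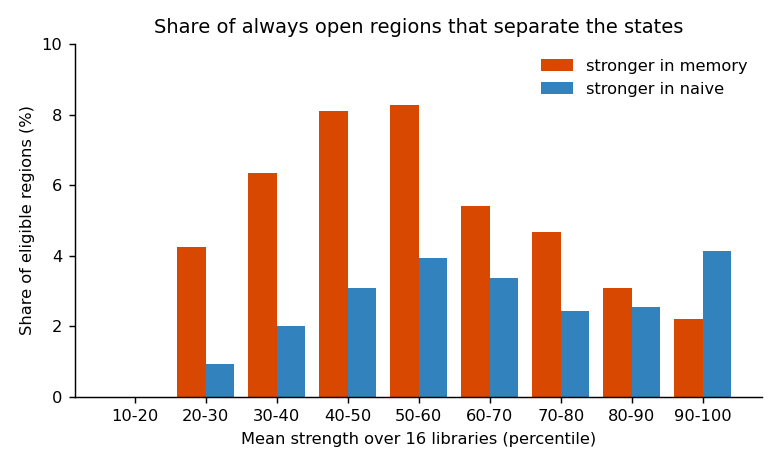
Share of eligible regions (y axis, percent) that were chosen as stronger in memory (orange) or stronger in naive cells (blue), by the region's mean strength over 16 libraries (x axis, percentile). The memory share reaches 8.26% in the range 50-60 and is 2.20% in the range 90-100, where the naive share is 4.13%.

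The gap between the lowest memory and the highest naive strength shows how far apart the states lay. Its median was 2.95 percentile points, it exceeded 5 points in 322 members, 10 points in 12.8% of members and 20 points in 14 members. The widest gap, 34.0 points, was on chromosome 4 at 153266871 to 153271706. Naive CD4+ cells had strengths of 41.0 and 22.7 in animal 1 and 20.7 and 27.6 in animal 2 (before and after treatment in each case). Naive CD8+ cells had 23.1 and 19.6 in animal 1 and 18.7 and 24.7 in animal 2, memory CD4+ cells 76.7 and 75.6, then 79.0 and 75.0, and memory CD8+ cells 91.7 and 83.9, then 84.6 and 78.0. One naive CD4+ library stood above the other naive libraries, and memory CD8+ cells were the strongest population. The peaks were also longer, with a median width of 2817 bp in memory and 800.5 bp in naive libraries.

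The other members with the widest gaps had the same form, a weak naive peak and a strong memory peak. On chromosome 18 at 58351542 to 58354563 the lowest, median and highest memory strengths were 70.9, 77.1 and 86.9, and the naive ones 33.2, 39.6 and 42.2. On chromosome 3 at 70580215 to 70583260 they were 72.3, 75.0 and 78.8 against 13.6, 31.6 and 46.6. On chromosome 6 at 157877217 to 157879813 they were 60.8, 62.9 and 66.8 against 16.4, 28.0 and 36.1. On chromosomes 3 and 6 the memory values lay closer together than the naive ones, with SDs over 8 libraries of 2.08 against 13.4 and 2.15 against 7.38, and on chromosome 18 the reverse held, with 6.20 against 2.94. On chromosome 17 at 28604957 to 28608124 the memory strengths were 73.0, 84.5 and 87.4 and the naive ones 15.6, 35.8 and 49.4. On chromosome 19 at 37789379 to 37791239 they were 62.7, 66.2 and 71.8 against 8.66, 27.4 and 39.1. The naive values on chromosome 17 were scattered within each lineage, from 15.6 to 47.7 in CD4+ and from 19.2 to 49.4 in CD8+ cells (4 libraries each). On chromosome 2 at 92297044 to 92298418 the memory strengths were 61.8, 65.8 and 68.5 and the naive ones 22.6, 34.6 and 38.7. On chromosome 10 at 29930610 to 29932958 they were 60.8, 69.3 and 75.8 against 29.5, 34.7 and 38.4. There 7 naive and 0 memory libraries had several peaks, and the median points of strongest signal of the 2 states were 593.5 bp apart. On chromosome 17, 4 naive and 0 memory libraries had several peaks. The area score divided by the peak's width, at its highest over a library's peaks in the region, did not separate the states on chromosomes 18, 6 and 10. The gaps were -5.33, -4.57 and -14.1 points. In each of these 8 regions the mean of memory CD8+ cells was above that of memory CD4+ cells. On chromosome 3 they differed by less than the spread between libraries (74.9 ± 2.78 against 74.6 ± 1.53, SD, n = 4 each).

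**Figure D3:**
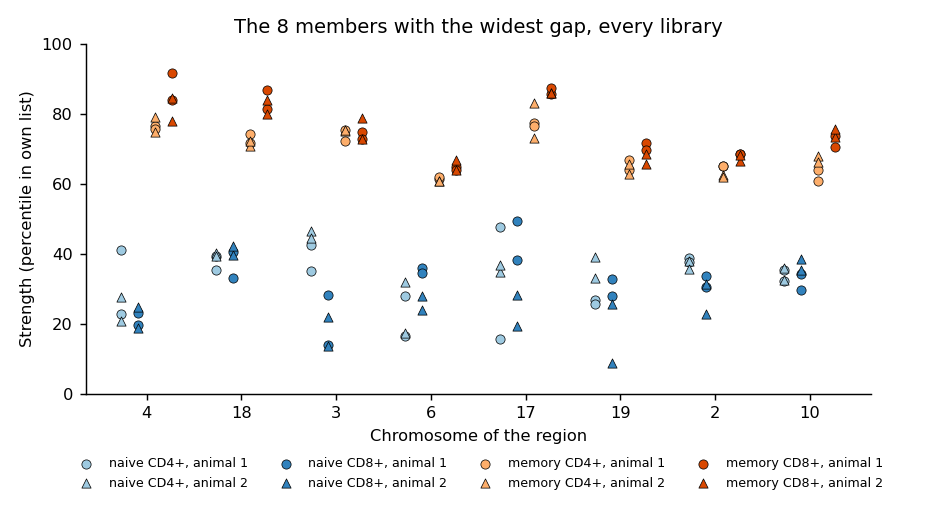
Strength (y axis, percentile within a library's own list) of the 8 members with the widest gap, named on the x axis by chromosome, in every library. Colours give the population, circles animal 1 and triangles animal 2, with 2 times each. Memory libraries sit between 60.8 and 91.7 and naive libraries between 8.66 and 49.4.

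At the threshold the choice turned on very small differences. The members just inside it had gaps of 0.00765 points (chromosome 11, 128678420 to 128683441), 0.00804 points (chromosome 9, 102329475 to 102332563) and 0.00989 points (chromosome 1, 56040056 to 56043894). The eligible regions just outside had gaps of -0.00111 points (chromosome 13, 43512071 to 43516067), -0.00141 points (chromosome 17, 9441868 to 9446127) and -0.00526 points (chromosome 1, 23404272 to 23406912). A single library often set the limit. The lowest memory strength was that of memory CD4+ cells of animal 2 after treatment in 268 members and of memory CD8+ cells of animal 1 before treatment in 41. The highest naive strength came from naive CD4+ cells of animal 1 before treatment in 189 members and from naive CD8+ cells of animal 2 after treatment in 62. Without any 1 library the rule gave 979 to 1083 members (5.2% and 5.7% of the regions then eligible).

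The area score sums the signal over a peak, so a larger score can come from a wider or a taller peak, and members showed both. Mean height is the area score divided by the peak's width. For height, width and summit −log10 p the highest percentile among a library's peaks in the region was taken. It need not belong to the peak with the highest area score. Ranked within lists as the area score was, the median difference between memory and naive cells was 13.7 points for mean height, 13.1 for width and 15.2 for the −log10 p at the summit. Over all eligible regions these medians were 0.0248, -0.179 and 0.133. Mean height alone separated the 8 memory from the 8 naive libraries in 258 members (27.3%; 1.73% of eligible regions), width in 230 (24.3%; 1.51%) and the summit −log10 p in 471 (49.8%; 3.09%). Both height and width did so in 72 members (7.62%; 0.38% of eligible regions), and neither in 529 (56.0%; 97.1%). None of height, width and summit −log10 p did so in 346 (36.6%; 95.6% of eligible regions). In base pairs, the width of each library's strongest peak was taken. Its median over members was 1887 bp in memory and 1286 bp in naive libraries. The ratio of the widths had a median of 1.36 (quartiles 1.19 and 1.67), against 1.04 over all eligible regions. These measures come from the same contrast as the rule, and the shares are printed beside their background without being read as support.

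A library could have several peaks in a merged region, and its strongest was used for the strength. In 589 members (62.3%) every library had a single peak, against 75.0% of eligible regions. In 199 members (21.1%; 12.1% of eligible regions) more naive than memory libraries had several peaks, and in 136 (14.4%; 9.39%) the reverse held. With the areas of a library's peaks summed in place of the strongest, the rule gave 1097 members, 901 of them among the 945.

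The point of strongest signal mostly stayed in place between the states, by medians over libraries. Single libraries were more spread, and all 16 summits lay within 100 bp in 368 members (38.9%; 41.7% of eligible regions). The median summits of memory and naive libraries were 7.5 bp apart in the median member and 5.0 bp in the median eligible region. They were over 100 bp apart in 135 members (14.3%; 13.3% of eligible regions). In 3 members (0.317%; 0.106% of eligible regions and 0.341% of those stronger in naive cells) the summits of the 8 memory libraries and those of the 8 naive libraries did not overlap in position, and these were singled out after their values were seen. One of them is the region with the widest gap, on chromosome 4. Its memory summits lay 4018 to 4101 bp from the start of the region and its naive summits 886 to 3019 bp, and 7 memory and 6 naive libraries had several peaks there. The others were on chromosome 13 at 70244328 to 70247660, with medians of 1386 bp from the start in memory and 2843 bp in naive libraries, and on chromosome 9 at 33948858 to 33952696, with 2791 and 1034 bp. On chromosome 13, 0 memory and 0 naive libraries had several peaks, so each library had a single peak. Its summit lay 1380 to 1394 bp from the start in memory and 1513 to 2873 bp in naive libraries. On chromosome 9, 8 memory and 2 naive libraries had several peaks.

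Members lay on all 20 autosomes and X, and many lay near each other. They made up 7.59% of eligible regions on chromosome 9, 7.51% on chromosome 4 and 7.04% on chromosome 18, and 2.56% on chromosome 19 and 3.01% on X. Within 50 kb, 349 members (36.9%) had another member, against 10.8% of all eligible regions that had a member near. The regions chosen as stronger in naive cells also lay near their own kind, in 14.5% against 5.40%. Their surroundings also held more open regions, with a median of 8 other regions within 50 kb against 6. Those of regions chosen as stronger in naive cells held a median of 5. Joined at up to 50 kb, 349 members formed 151 groups and 596 stood alone, and 35 groups had 3 members or more.

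Near the members lay regions that were open in memory cells alone. A region with a peak in all 8 memory and no naive library was found within 50 kb of 162 members (17.1%), against 4.02% of eligible regions and 7 of the 587 stronger in naive cells (1.19%). The opposite kind, with a peak in each of the 8 naive libraries and in none of the memory ones, was near 12 members (1.27%; 2.99% of eligible regions) and near 59 of the regions stronger in naive cells (10.1%). Each kind thus lay more often near all-or-none regions of its own state. No member had both kinds, and only 0.037% of eligible regions did. Most members, 771 (81.6%), had neither, against 93.0% of eligible regions and 88.8% of those stronger in naive cells. Because both kinds of region are defined by the same 2 states, these shares are a description of how graded and all-or-none differences lie along the chromosomes.

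The largest groups held 5 members each. On chromosome 7, over 65.3 kb from 117179700 to 117245026, all 5 eligible regions were members, among 8 regions in all. The mean strengths at 117182474 to 117184593, the member with the widest gap of the group, were 62.5 ± 2.84 in memory and 36.0 ± 5.80 in naive libraries (SD, n = 8 each). At 117241792 to 117245026, its strongest region, they were 89.5 ± 1.82 and 78.3 ± 2.51 (SD, n = 8 each). Both other groups of 5 were less complete, with 5 of 6 eligible regions on chromosome 3 from 13259519 to 13339841 and 5 of 8 on chromosome 4 from 15429710 to 15482673. Their gaps ran from 0.676 to 8.78 and from 0.542 to 8.04 points. None of the 3 groups held a region open in memory cells alone, or one stronger in naive cells.

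The member with the most such neighbours lay in a group of 4 on chromosome 13, from 14660522 to 14702173, where every eligible region was a member. At 14698167 to 14702173 it had 4 regions open in memory alone within 50 kb, and its strengths were 67.7, 86.4 and 94.2 (lowest, median and highest) in memory and 18.2, 37.5 and 45.6 in naive libraries. The lowest memory value was that of memory CD4+ cells of animal 1 after treatment, while the other 7 lay at 85.9 or above. The next member of the group, at 14689129 to 14690428, also had 4 such neighbours and a smaller step, 61.4 ± 3.03 against 47.9 ± 4.03 (SD, n = 8 each). On chromosome 15 at 10522616 to 10528062 a member with 4 such neighbours had memory strengths of 58.0 to 86.8 and naive strengths of 22.0 to 45.5. The region with the widest gap had company as well. It was the middle of 3 members over 61.8 kb on chromosome 4, whose others, at 153257105 to 153260514 and at 153317224 to 153318937, had gaps of 10.2 and 17.6 points.

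**Figure D4:**
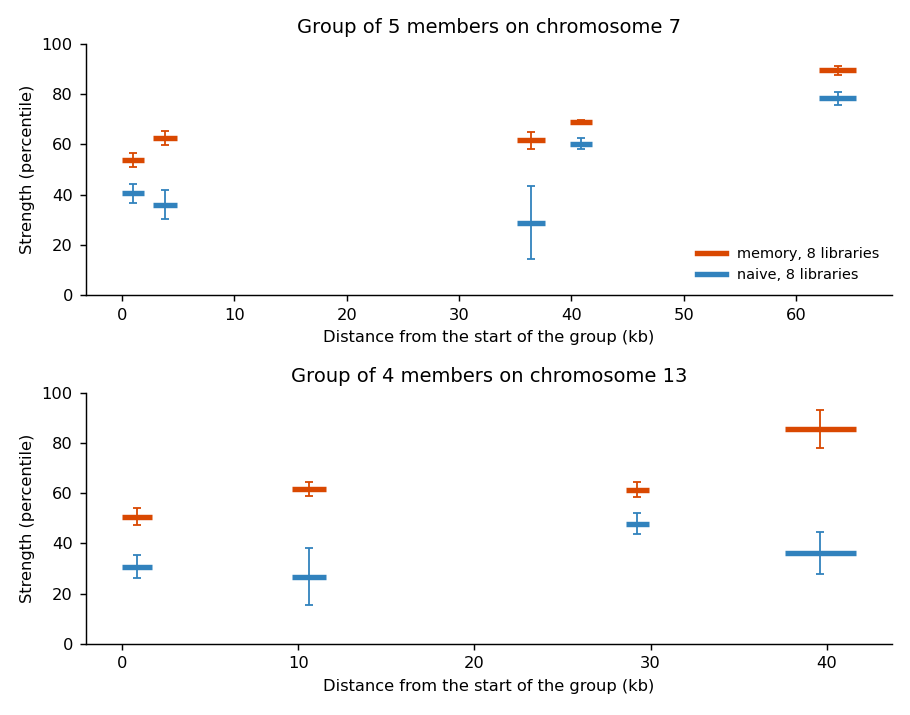
Strength (y axis, percentile, mean ± SD over 8 libraries) of the members of 2 groups against distance from the start of the group (x axis, kb), with the length of each bar the width of the region. Memory (orange) lies above naive (blue) in each region, as the rule requires, and the step ranges from 8.6 points at the fourth region on chromosome 7 to 49.3 points at the last on chromosome 13.

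Comparing CD4+ with CD8+ cells asked whether members also differed between the lineages, a label the rule did not use. The test was limma on the strengths of all 18930 eligible regions and all 16 libraries, with terms for state, lineage, time and their interactions with state, and Benjamini-Hochberg adjustment with a threshold of 0.05. The p-values measure the spread between libraries of 2 animals. The fit had no term for the animal, so libraries of 1 animal, also at its 2 times, counted as independent and the pairing was not used. Averaged over the states, 266 members differed (28.1%), which is near the 27.3% of all eligible regions. Of these, 141 were higher in CD8+ cells (14.9%; 9.06% of eligible regions) and 125 higher in CD4+ cells (13.2%; 18.3%). That split moved with the scale, to 217 and 92 on log2 area scores (over all eligible regions from 1715 and 3462 to 2855 and 2913). With lists of equal length it was 178 and 90 (20.3% and 10.3%), and over eligible regions 2290 and 2847 (12.5% and 15.6%). The split over eligible regions thus moved towards CD8+ cells as well. In animal 1 alone 168 members were called (18.2%; 22.2% of eligible regions) and in animal 2 alone 215 (23.3%; 23.9%). With the animal as a block in the fit 316 were called (33.4%; 33.8%).

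Split by state, the counts leaned in opposite directions. The rule chose members on the strengths of each state, and the p-values do not allow for that choice. Among memory cells 143 members were called (15.1%; 20.8% of eligible regions), 13.1% of members being higher in CD8+ cells (7.08% of eligible regions) and 2.01% lower (13.8%). Among naive cells 179 were called (18.9%; 9.89%), 42 higher in CD8+ cells (4.44%; 3.79%) and 137 lower (14.5%; 6.10%). That naive split became 76 and 99 on log2 area scores (8.04% and 10.5%), where the split over eligible regions turned to 1141 higher and 933 lower (6.03% and 4.93%). The share called among memory cells became 10.1% (17.0% of eligible regions) without memory CD8+ cells of animal 1 after treatment and 5.95% (12.3%) in animal 1 alone. The share among naive cells became 12.9% (6.41%) in animal 2 alone and 12.3% (7.25%) in animal 1 alone. Of the regions chosen as stronger in naive cells, 34.9% were called among memory cells, 3.41% higher in CD8+ cells and 31.5% lower. Among naive cells 2.56% of them were called. The lean thus differed with the direction of the choice and is not read as a result about the members.

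The 4 populations were also ordered by their means, and beside each share of members stands the share among the 4683 eligible regions with both memory means above both naive means. The order memory CD8+, memory CD4+, naive CD4+, naive CD8+, in which CD8+ cells held both ends, was found in 337 members (35.7%; 27.9%). Memory CD8+, memory CD4+, naive CD8+, naive CD4+ was found in 322 (34.1%; 32.0%), and memory CD4+, memory CD8+, naive CD4+, naive CD8+ in 241 (25.5%; 31.0%). The last possible order, with CD4+ cells at both ends, was found in 45 (4.76%; 9.16%). All 4 memory CD8+ libraries lay above all 4 memory CD4+ libraries in 211 members (22.3%; 8.90% of eligible regions), and the reverse in 36 (3.81%; 15.1%). All 4 naive CD4+ libraries lay above the 4 naive CD8+ libraries in 142 (15.0%; 10.1%), and the reverse in 48 (5.08%; 6.41%).

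The step from naive to memory was larger in CD8+ than in CD4+ cells in most members. The difference between the lineages in that step had a median of 3.01 points over members and -0.23 over eligible regions, and was above 0 in 723 of 945 members (76.5%; 45.8% of eligible regions). The rule requires a step up in both lineages and does not say in which it is larger. It was applied to the same strengths, so the steps of members were selected and the p-values below do not allow for that choice. By the test of the interaction 75 members differed (7.94%; 2.54% of eligible regions), 72 with the larger step in CD8+ cells (7.62%; 1.00%) and 3 with the larger step in CD4+ cells (0.317%; 1.54%). Among the 587 regions chosen as stronger in naive cells 50 differed (8.52%), and in 49 of them the step down into memory was larger in CD8+ cells. A share above the background was therefore common to both sets chosen for a step, and it is not read as a result about the members. On log2 area scores 55 and 4 members were called, and over all eligible regions the split moved from 190 and 291 to 173 and 477.

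The number called depended on the libraries at hand. With the animal as a block in the fit 12.0% of members were called (4.80% of eligible regions). In animal 2 alone 57 were called (6.17%; 5.10% of eligible regions) and in animal 1 alone 2 (0.216%; 0.162%), shares near the background in either animal. In animal 2 alone 5.63% of members (1.24% of eligible regions) had the larger step in CD8+ cells. The difference was above 0 in 79.4% of members in animal 1 and in 68.8% in animal 2 (56.2% and 36.8% of eligible regions). Single libraries left out gave 42 to 84 members (1.53% and 3.18% of eligible regions in those fits). The count fell to 49 and 43 without memory CD4+ cells of animal 1 after and before treatment (1.73% and 1.77% of eligible regions). Without those of animal 2 it fell to 42 and 46 (1.53% and 1.69%). It fell to 46 and 47 without naive CD4+ cells of animal 2 after and before treatment (1.53% and 1.54%). Without memory CD8+ cells of animal 1 after treatment it fell to 49 (2.07%). With all libraries the share of eligible regions was 2.54%, so in these fits calls were lost over all eligible regions as well.

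**Figure D5:**
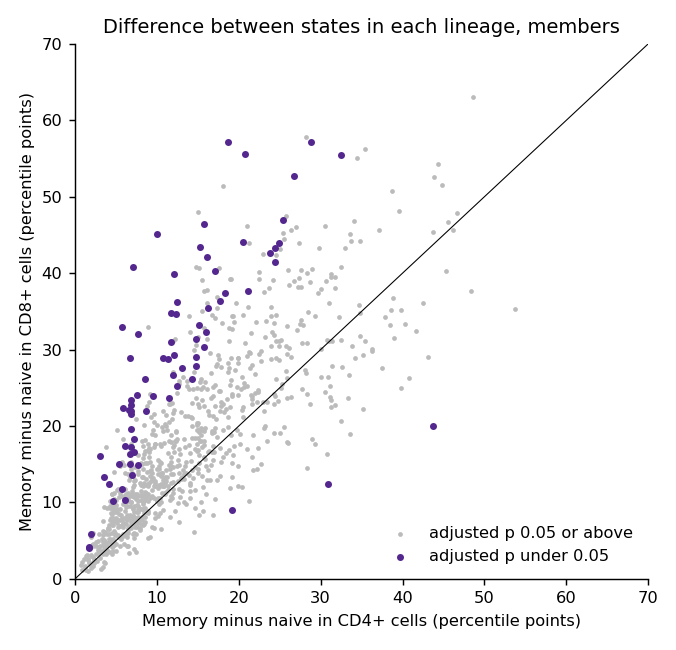
Difference in mean strength between memory and naive cells (percentile points) in CD4+ cells (x axis) and CD8+ cells (y axis) for the 945 members, with the line of equal difference. Purple points are the 75 members in which the differences were unequal at an adjusted p under 0.05 (limma), of which 72 lie above the line and 3 below.

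In the regions with the largest inequality, naive CD8+ cells were often low. On chromosome 8 at 133197587 to 133201312, naive CD8+ cells had strengths of 29.1, 22.8, 27.7 and 32.7 (animal 1 before and after, then animal 2) and naive CD4+ cells 57.4, 63.5, 77.5 and 69.9. Memory CD4+ cells had 80.7, 85.7, 90.2 and 86.7 there, and memory CD8+ cells 81.4, 86.0, 86.7 and 86.8. The naive lineages did not overlap and the memory lineages did. The step was 38.5 ± 5.24 points (SE) larger in CD8+ cells (limma, adjusted p = 0.00211). On chromosome 9 at 7322714 to 7324269 naive CD8+ cells had 30.8, 3.35, 6.96 and 4.94 and naive CD4+ cells 43.5, 41.9, 46.0 and 46.1, and the difference was 34.9 ± 6.07 points (SE, adjusted p = 0.00977). There 3 of the 4 naive CD8+ peaks were among the faintest of their lists.

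In both other regions memory CD8+ cells stood above memory CD4+ cells. On chromosome 1 at 14049750 to 14054086 memory CD8+ cells had strengths of 92.1, 88.4, 90.4 and 87.5 and memory CD4+ cells 73.3, 72.3, 72.7 and 69.1. Naive CD8+ cells had 36.4, 42.2, 52.0 and 47.6 and naive CD4+ cells 65.2, 54.3, 64.8 and 63.1, so CD8+ cells were lower among naive and higher among memory libraries without overlap. The difference was 35.0 ± 4.20 points (SE, limma, adjusted p = 0.00124). In that region 8 naive and 4 memory libraries had several peaks, and the median summits of the states were 791 bp apart. Members called with CD8+ cells higher among memory and lower among naive cells numbered 6 (0.635%; 0.0581% of eligible regions). On chromosome 4 at 157924506 to 157927296 memory CD8+ cells had 48.7, 67.4, 54.5 and 51.2 and memory CD4+ cells 28.9, 25.6, 22.6 and 28.7, with a difference of 33.7 ± 6.70 (SE, adjusted p = 0.0191). Here 3 memory and 0 naive libraries had several peaks, and the median summits of the states were 764.5 bp apart. This last call was lost on normal scores (adjusted p = 0.0699) and without naive CD4+ cells of animal 2 after treatment, where the difference was 32.3, and its adjusted p ran from 0.0121 to 0.263 over the alternatives. In animal 1 alone none of the calls of the 4 regions held, with adjusted p from 0.0581 to 0.294, while their differences there were 35.1, 28.6, 37.9 and 39.5 points in the order given.

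The 3 members with the larger step in CD4+ cells were on chromosome 6 (57438110 to 57440386, and 157807266 to 157812235) and chromosome 1 (18899195 to 18900737). In the first, naive CD4+ cells had strengths of 10.1, 24.1, 18.8 and 4.39 against 47.7 to 52.7 in naive CD8+ cells, and the difference was -23.8 ± 5.37 points (SE, limma, adjusted p = 0.0349). On chromosome 1 naive CD4+ cells were likewise lower than naive CD8+ cells, 28.6 ± 6.50 against 53.6 ± 1.03 (SD, n = 4 each), with a difference of -18.5 (adjusted p = 0.0210). In the remaining region memory CD4+ cells were the highest population, 88.5 ± 2.31 against 75.5 ± 2.26 in memory CD8+ cells (SD, n = 4 each), with a difference of -10.2 (adjusted p = 0.0267). The call of the first was lost without any 1 of 10 libraries, namely all of memory CD4+ cells, those of memory and naive CD8+ cells after treatment, naive CD8+ cells of animal 2 before treatment and naive CD4+ cells of animal 1 before treatment, with differences of -21.4 to -25.0. Over all alternatives its adjusted p ran from 0.0124 to 0.225. The call of the last was lost without any 1 of 8 libraries, namely naive CD4+ cells of animal 1 at either time, naive CD8+ cells of animal 2 at either time, memory CD4+ cells of animal 2 at either time and of animal 1 before treatment and memory CD8+ cells of animal 1 after treatment. Its differences were then -9.21 to -10.4, and its adjusted p ran from 0.00146 to 0.262 over the alternatives. The call on chromosome 1 was lost without memory CD4+ cells of animal 2 before treatment (-17.8) and without naive CD4+ cells of animal 2 after treatment (-17.7), with an adjusted p from 0.00184 to 0.142 over the alternatives. None of the 3 calls held in animal 1 alone, with differences of -23.6 and -9.72 on chromosome 6 and -20.6 on chromosome 1.

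Averaged over both states, the largest lineage difference in favour of CD8+ cells was on chromosome 13 at 71289493 to 71291591, where naive CD4+ cells had strengths of 1.30, 1.85, 13.8 and 11.8, naive CD8+ cells 31.1, 20.4, 32.0 and 20.4, memory CD4+ cells 34.4, 34.5, 33.9 and 32.8 and memory CD8+ cells 67.9, 65.0, 65.4 and 61.4. The populations formed 4 levels, with naive CD8+ and memory CD4+ cells nearly touching, and CD8+ cells were 24.9 points higher over both states (limma, adjusted p = 2.26e-05). The next were on chromosome 8 at 70758676 to 70760601 (22.4 points, adjusted p = 6.97e-05) and on chromosome 4 at 33606662 to 33609405 (20.3 points, adjusted p = 5.13e-05), beside the region on chromosome 6 at 57438110 (24.3 points, adjusted p = 3.15e-05). In favour of CD4+ cells were the region on chromosome 8 at 133197587 given above (-19.8 points, adjusted p = 0.000124) and regions on chromosome 4 at 158209725 to 158212878 (-19.9, adjusted p = 0.00395), chromosome 1 at 40856634 to 40859193 (-19.5, adjusted p = 0.000133) and chromosome 5 at 110795604 to 110798860 (-19.5, adjusted p = 0.000693). In the region on chromosome 1 naive CD4+ cells stood at 51.8 ± 9.18 and naive CD8+ cells at 18.1 ± 4.16 (SD, n = 4 each), while memory CD4+ and CD8+ cells were at 80.6 ± 1.62 and 75.3 ± 2.41. The median summits of memory and naive libraries were 1374 bp apart in that region. In the 4 regions in favour of CD8+ cells the difference passed the test within memory and within naive cells, and in the 4 in favour of CD4+ cells within naive cells alone (limma, adjusted p within memory cells 0.180 to 0.941).

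The treatment comparison asked whether members gained or lost strength over cyclodextrin dosing, and no member passed the test. By limma 0 members were called, with 1 call among all eligible regions (0.00528%), and the smallest adjusted p of a member was 0.491. At an unadjusted p under 0.05 there were 12.6% of members (8.80% of eligible regions), and fits with the animal, or the animal within population, as a block called 0 members too. Without naive CD4+ cells of animal 1 after treatment, and in animal 2 alone, 1 member was called. The median difference, after minus before, was -0.75 points over members and 0.31 over eligible regions, and it was below 0 over members on each scale tried. Strength was lower after treatment in at least 7 of the 8 before-after pairs in 132 members (14.0%; 5.54% of eligible regions) and higher in 31 (3.28%; 11.6%). Within animals, 46.2% of members were higher after treatment in animal 1 and 27.8% in animal 2, where eligible regions gave 63.1% and 52.8%. These shares were not tested.

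None passing the test, the members with the smallest p in the direction of a loss lay at 79283809 to 79289020 of chromosome 14 and at 144936417 to 144941633 of chromosome 4. On chromosome 14 the strengths before and after were 46.1 and 6.38 in naive CD4+, 40.9 and 21.8 in naive CD8+, 67.5 and 50.8 in memory CD4+ and 69.1 and 79.6 in memory CD8+ cells of animal 1. In animal 2 they were 39.0 and 29.1, 39.9 and 15.2, 62.4 and 47.7, and 87.7 and 65.7. It was lower after treatment in 7 of 8 pairs, all but memory CD8+ cells of animal 1, by 17.1 ± 3.68 points on average (SE, limma, adjusted p = 0.491). On chromosome 4 the difference was -3.04 ± 0.66 points, with naive strengths of 92.9, 93.1, 88.6 and 84.6 before and 86.0, 83.5, 79.9 and 82.6 after treatment (CD4+ cells of animals 1 and 2, then CD8+ cells). Its memory strengths lay above 94 in all 8 libraries and were higher after treatment in all 4 memory pairs. The lower strengths after treatment were thus in naive cells alone. The change over time differed between memory and naive cells by 7.48 ± 1.32 points there (SE, limma, adjusted p = 0.498). In the direction of a gain the first were on chromosome 17 at 1218239 to 1222204 (0.81 ± 0.21 points, SE) and on chromosome 1 at 96069913 to 96073021 (1.23 ± 0.33), each higher after treatment in 8 of 8 pairs and each with an adjusted p of 0.491. For a change over time that differed between memory and naive cells 0 members passed (limma, smallest adjusted p = 0.498), with 1 call among eligible regions (0.00528%). At an unadjusted p under 0.05 there were 28 members (2.96%; 1.37% of eligible regions). Without naive CD4+ cells of animal 1 after treatment, without naive CD8+ cells of animal 2 before treatment, and in animal 2 alone, 1 member was called.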

How the data were processed

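Each of the 16 ATAC-seq libraries was made from 10000 sorted cells, per the labels' protocols, and deposited as 1 peak list. The submitters' processing notes name the build rheMac10 and the tools Genrich 0.6 (a peak caller), Bowtie2 2.3.4.1 (an aligner) and cutadapt 1.18. For settings, the shift for transposase binding and duplicate removal, the sources used here give nothing. Each deposited list holds, per peak, an area score (lowest 200.0) and the authors' −log10 p of its summit (lowest 2.42). Because a score is relative to 1 library, ranks within the list were used. A percentile depends on how many weak peaks the list holds. Depth was unknown, and no interval is given.

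Regions, strengths and members followed the rule in the report. The members, the lists and the tests were chosen with earlier results of these data known. Lineage, time and interaction were tested with limma 3.58.1 (R 4.3.3, variance trend), which was tested on simulated data with a random seed of 1. The simulated noise was independent between libraries, so that trial did not cover libraries paired by animal. The main fit had no term for the animal. Animals were taken from the titles, although file names number the second animal differently in each population. The titles pair the libraries, and deviations of animal 1 from its group mean correlated between all 28 pairs of groups (0.301 to 0.572). Named regions were the 8 widest and 3 narrowest gaps, the 3 nearest non-members, up to 4 members per direction with the largest called difference in lineage or interaction (for time the first 2 by p), the strongest and weakest 2, the 3 largest groups and the 3 members with most memory-only neighbours. Others are said to be singled out or belong to a group named so. The group on chromosome 13 was drawn after its values were seen. Planned gene lists and motifs were not run, since no genome or annotation of rheMac10 was used here. Computations used Python 3.11.15, numpy 2.4.6, pandas 2.3.3, scipy 1.17.1 and matplotlib 3.10.9.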

Additional observations from a re-analysis of the deposited data

Results flagged for a closer look

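In 5 of 102 sets of 8 libraries (50 named members, plus the medians over members, each in memory and in naive libraries) 1 library stood far from the other 7, where chance gives about 1 set in 20. On chromosome 4 at 153266871 to 153271706, the region with the widest gap, naive CD4+ cells of animal 1 before treatment had a strength of 41.0 against a naive median of 22.9. On chromosome 19 at 37789379 to 37791239 naive CD8+ cells of animal 2 after treatment had 8.66 against 27.4. Memory CD8+ cells of animal 2 before treatment were high on chromosome 11 at 128678420 to 128683441 (92.2 against a memory median of 81.9) and on chromosome 9 at 102329475 to 102332563 (74.4 against 60.3). On chromosome 13 at 14698167 to 14702173 memory CD4+ cells of animal 1 after treatment were low, 67.7 against 86.4.

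The step from naive to memory differed between CD8+ and CD4+ cells in 75 members by the interaction test (limma; 7.94%, against 2.54% of eligible regions). Members were chosen by that step, which the test does not allow for. The named ones had differences of 38.5 points on chromosome 8 at 133197587, 35.0 on chromosome 1 at 14049750, 34.9 on chromosome 9 at 7322714 and 33.7 on chromosome 4 at 157924506, with the larger step in CD8+ cells. The larger step was in CD4+ cells on chromosome 6 at 57438110 (-23.8), on chromosome 1 at 18899195 (-18.5) and on chromosome 6 at 157807266 (-10.2).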

How the results depend on the processing

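The number of members was 945 (4.99% of eligible regions). With fewer regions eligible, it became 402 where peaks had to cover at least 50% of the region (3.05%) and 607 for widths under 3 kb (4.59%). In place of the area score, mean height gave 328 members (1.73%) and summit −log10 p gave 585 (3.09%). The number was 2093 (10.5%) without animal 1 and 2439 (12.7%) without animal 2, where fewer libraries had to be separated. Without single libraries it was 979 to 1083 (5.2% and 5.7%).

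For lineage over both states 28.1% of members were called (27.3% of eligible regions). A stricter summit threshold of 3.42 gave 23.1% (22.3%). Leaving out an animal gave 18.2% to 23.3% (22.2% and 23.9%) and leaving out a library 24.0% to 29.2% (24.0% and 28.7%). Within memory cells, leaving out an animal gave 2363 to 4225 regions (12.3% and 21.2% of eligible regions) and 5.95% to 12.3% of members. Leaving out a library gave 3080 to 4340 regions (16.3% and 22.7%) and 10.1% to 16.1% of members. Within naive cells the stricter threshold gave 15.3% of members (7.44% of eligible regions). Leaving out an animal gave 12.3% to 12.9% (7.25% and 6.41%) and a library 15.4% to 20.4% (6.69% and 11.1%). Leaving out both naive CD8+ libraries of animal 1, chosen after seeing the data, gave 980 regions there.

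For the interaction 481 regions (2.54%) and 7.94% of members were called. The replicate block (animal) gave 908 regions (4.8%) and 12.0% of members. The stricter threshold gave 265 regions (1.56%), and leaving out both naive CD8+ libraries of animal 1 gave 777 (4.1%). Leaving out an animal gave 31 to 1018 regions (0.162% and 5.1%) and 0.216% to 6.17% of members. Leaving out a library gave 289 to 731 regions (1.53% and 3.82%) and 4.45% to 8.89% of members. The block changed no other count of members by over 1.5 times.

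Over time 1 region was called. Without a variance trend it was 3, without an animal 0 to 6 (0 to 0.108% of members) and without a library 1 to 3 (0 to 0.106%). For the change in memory against naive cells it was 0 to 3 regions without an animal and 1 to 2 without a library, with the same shares of members. No region named for a lineage, interaction or time difference changed sign in that difference under any alternative run. Regions named for other reasons were not followed one by one through the alternatives. Why these counts moved was not tested beyond the numbers of libraries and regions left in each. Read depth was unknown, so a rank low in a list could not be set against the reads behind it.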
